A study of Mus musculus with 25 samples.

Results

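The genes described are 6 that handle fatty acids and sterols in liver, measured among 35979 probes of an expression array. Ppara, Cpt1a and Abcd2 belong to fatty acid oxidation, and Mid1ip1, Scd2 and Lss belong to lipid synthesis. They were chosen by name from the mRNA probes that the study had listed as changed during liver regeneration, and each has 1 such probe. Only rows of that list for its clusters 1 to 4 were at hand, and part of cluster 4 was missing. The study had sorted these clusters by pattern on these same arrays into rising (1 and 4) and falling (2 and 3) transcripts. Ppara and Cpt1a stand in cluster 3, Abcd2, Mid1ip1 and Lss in cluster 4 and Scd2 in cluster 1. Calls for change over time, and their late direction, are therefore not independent evidence.

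The study followed liver regeneration after 2/3 partial hepatectomy (PHx), an operation that takes out the left lateral and median lobes of the liver and leaves the rest to regrow. Male Balb/c mice, 8 weeks old, were operated, and livers of 5 mice each were taken 4, 12, 36 or 72 hours later. Livers of 5 sham operated mice served as control. The labels name no mutation and no agent for any of the 5 groups. RNA of each liver was hybridised to 1 single-colour array, which gives 25 arrays. All sham livers were collected at 4 hours after surgery, so at 12, 36 and 72 hours the operation and the time since surgery cannot be told apart in a comparison with sham.

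Fatty acids are burned in mitochondria and peroxisomes. Cpt1a encodes the carnitine palmitoyltransferase that lets long chain fatty acids into mitochondria, and it is the controlled step of hepatic oxidation because malonyl-CoA, the first product of fatty acid synthesis, blocks the enzyme. Ppara encodes the nuclear receptor PPAR alpha, which together with a retinoid X receptor switches on Cpt1a and many other oxidation genes in the fasting liver. Abcd2 encodes a transporter that carries very long chain fatty acyl-CoA into peroxisomes. On the synthetic side, Mid1ip1 encodes a small protein that promotes the polymerisation and activity of acetyl-CoA carboxylase, the enzyme that makes malonyl-CoA. Scd2 encodes a stearoyl-CoA desaturase, which puts the double bond into saturated fatty acids, and Lss encodes lanosterol synthase, which closes the sterol ring on the way to cholesterol. Livers after PHx are known to take up fat transiently before and during the wave of hepatocyte division.

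In GRCm38.p6, Ppara spans chr15:85734910-85806851, Cpt1a spans chr19:3322326-3385735, Abcd2 spans chr15:91145871-91192007, Mid1ip1 spans chrX:10717365-10719702, Scd2 spans chr19:44293676-44306864 and Lss spans chr10:76531565-76557139. RefSeq promoter windows of this build, from 250 bases before to 50 after an annotated start site, were at hand for 4 of the 6 genes. They are shown because Ppara and Cpt1a fell together while Mid1ip1 and Lss were above sham at late times. All 4 lie on the forward strand, at chr15:85735526-85735825 for Ppara, chr19:3323051-3323350 for Cpt1a, chrX:10717115-10717414 for Mid1ip1 and chr10:76531355-76531654 for Lss. Capitals mark matches, on either strand, to the motifs GGGCGG (the GC box), CCAAT (the CCAAT box) and AGGTCA (the nuclear receptor core site).
Ppara: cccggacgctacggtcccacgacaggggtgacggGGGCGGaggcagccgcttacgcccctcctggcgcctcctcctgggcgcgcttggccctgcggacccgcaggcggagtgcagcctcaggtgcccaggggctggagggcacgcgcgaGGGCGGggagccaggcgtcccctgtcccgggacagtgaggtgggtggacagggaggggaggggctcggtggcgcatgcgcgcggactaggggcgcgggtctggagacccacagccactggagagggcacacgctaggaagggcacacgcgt
Cpt1a: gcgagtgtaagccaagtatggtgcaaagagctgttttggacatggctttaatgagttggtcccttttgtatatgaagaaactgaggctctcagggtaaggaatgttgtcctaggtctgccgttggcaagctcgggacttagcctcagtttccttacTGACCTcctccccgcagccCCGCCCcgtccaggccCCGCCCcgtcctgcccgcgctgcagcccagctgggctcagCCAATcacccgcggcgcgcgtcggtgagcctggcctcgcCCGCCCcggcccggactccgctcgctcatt
Mid1ip1: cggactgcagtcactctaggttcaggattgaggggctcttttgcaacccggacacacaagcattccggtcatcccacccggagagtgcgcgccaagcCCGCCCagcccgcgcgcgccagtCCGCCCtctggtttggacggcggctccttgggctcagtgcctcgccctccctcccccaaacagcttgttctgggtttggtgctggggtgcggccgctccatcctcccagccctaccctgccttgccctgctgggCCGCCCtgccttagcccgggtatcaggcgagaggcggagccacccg
Lss: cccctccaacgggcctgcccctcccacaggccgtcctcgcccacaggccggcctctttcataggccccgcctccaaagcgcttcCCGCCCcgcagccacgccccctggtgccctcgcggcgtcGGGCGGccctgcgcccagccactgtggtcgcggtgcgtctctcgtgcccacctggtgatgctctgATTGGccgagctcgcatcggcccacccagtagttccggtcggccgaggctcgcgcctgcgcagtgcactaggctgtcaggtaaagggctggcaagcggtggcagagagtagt

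The GC box occurred 2 times in the Ppara and Lss windows and 3 times in the Cpt1a and Mid1ip1 windows, and 35.7% of all 32851 windows held it at least 1 time. The CCAAT box occurred 1 time in the Cpt1a window and 1 time, on the reverse strand, in the Lss window, and 37.4% of all windows held it. The Cpt1a window alone among the 4 held AGGTCA, on the reverse strand from 94 to 89 bases before the start site, and 16.3% of all windows held that motif. Searches on both strands for AGGTCANAGGTCA (the paired site of PPAR alpha with its partner, in 0.0396% of all windows), CACGTG (the E-box, 7.15%), TCACNCCAC (a sterol regulatory element, 1.24%) and TATAAA (the TATA box, 13.6%) found no match in the 4 windows. The matches did not overlap each other. GC content was 74.7% for Ppara, 62.3% for Cpt1a, 68.0% for Mid1ip1 and 71% for Lss, against a median of 52.7% over all windows. These matches are letters in a sequence and were not tested as binding sites.

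The arrays resembled each other closely. Between arrays of 1 group the correlation of log2 intensities ranged from 0.981 to 0.996, and the median intensity of an array ranged from 97.7 to 102.7. The median log2 fold change of all probes against sham lay between -0.00775 and 0.00363. This follows from the nearly equal medians of the deposited values and cannot show whether RNA levels shifted as a whole. The changes below are relative to that scale. The values are intensities on a linear scale with no background taken off to 0, and the dimmest 30% of probes had a mean below 68.3. All 6 genes lay above that level on average, although the dimmest single values of Abcd2 and Lss came near to it. Fold changes of such dim values are compressed by the background.

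Ppara and Cpt1a fell after PHx and were lowest at 36 hours, whereas Abcd2, Mid1ip1, Scd2 and Lss were above sham at 36 and 72 hours. The largest fall against sham among the 6 genes was 3.05-fold, for Cpt1a at 36 hours, and the largest rise was 4.73-fold, for Abcd2 at 72 hours. Abcd2, a gene of oxidation by its function, thus stood above sham at late times, as the synthesis genes did. From 36 to 72 hours these genes did not all move the same way. In the limma F test on all times against sham, all 6 genes passed an adjusted p of 0.05, with adjusted p from 2.29e-11 for Scd2 to 3.21e-05 for Ppara, and 48.9% of all probes passed the same test.

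**Figure D1:**
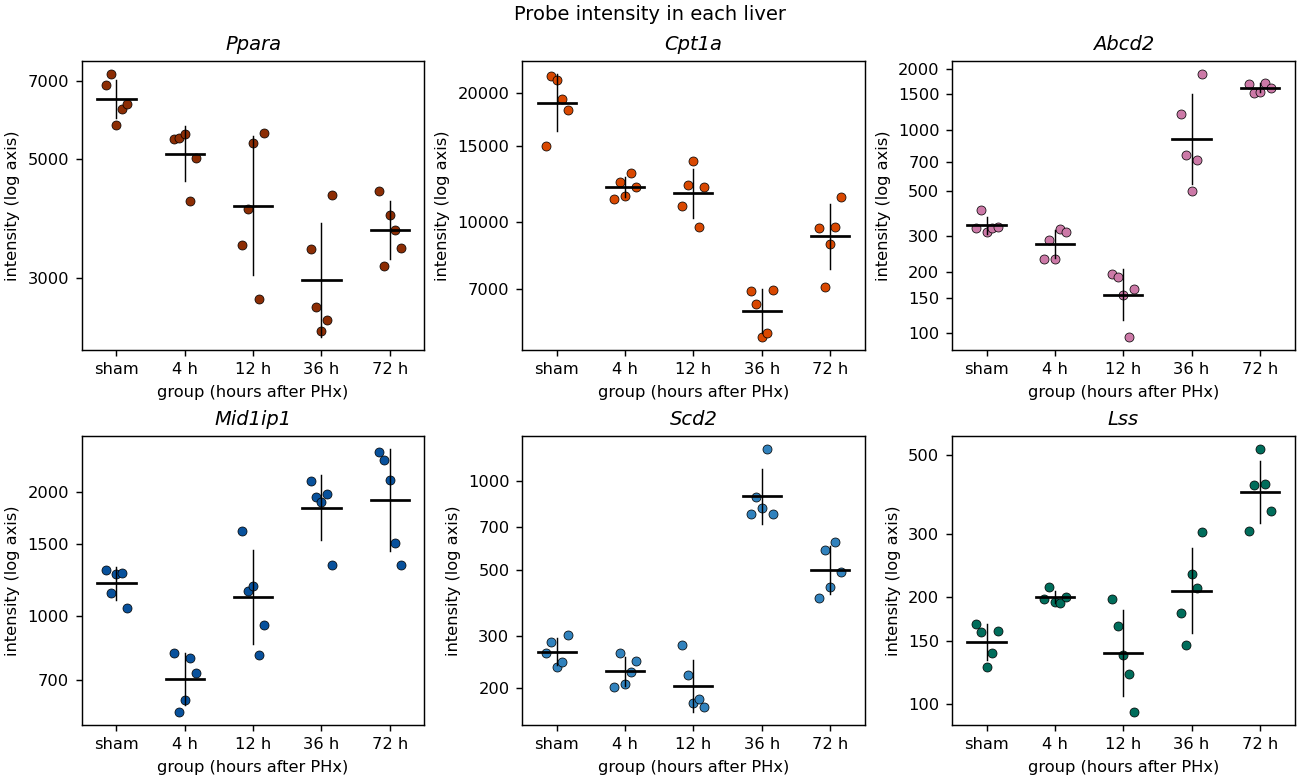
Probe intensity of the 6 genes in each of the 25 livers, on a logarithmic axis, by group (sham, and PHx after 4, 12, 36 and 72 hours; 5 livers each). Points are single livers, horizontal bars are group means of log2 intensity and vertical bars are 1 SD; Cpt1a lies lowest at 36 hours, from 5423 to 6953, and Abcd2 lies between 1514 and 1712 at 72 hours.

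Ppara intensity was 6865, 7197, 5797, 6201 and 6330 in the 5 sham livers and 5444, 5463, 5577, 4177 and 5034 at 4 hours after PHx. The 12 hour livers had 3466, 4043, 5352, 2746 and 5602, those of 36 hours had 3402, 2648, 2390, 2506 and 4281, and those of 72 hours had 4366, 3159, 3941, 3694 and 3411. All livers after PHx lay below all sham livers at every time, while the 12 hour livers were widely scattered and overlapped those of the other times after PHx. Log2 intensity was 12.66 ± 0.12 in sham livers, 12.32 ± 0.17 at 4 hours, 12.00 ± 0.43 at 12 hours, 11.54 ± 0.35 at 36 hours and 11.85 ± 0.18 at 72 hours (SD, n = 5). Against sham, the log2 fold change was -0.66 ± 0.17 (SE) for the 12 hour livers, -1.12 for the 36 hour livers and -0.81 for the 72 hour livers, with limma adjusted p of 0.00316, 9.94e-06 and 5.12e-04. The difference at 4 hours, -0.34, did not pass in limma (adjusted p = 0.224, unadjusted p = 0.0528), although the groups did not overlap. In a two-sided exact permutation test of that difference the unadjusted p was 0.00794, the smallest that 5 against 5 can give.

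The receptor mRNA therefore stood in the order sham, 4, 12, 72 and 36 hours from highest to lowest, but no neighbours in this order passed the limma test. Sham and 4 hours are given above, 12 against 4 hours differed by -0.32 (adjusted p = 0.181), 72 against 12 hours by -0.15 (adjusted p = 0.555) and 72 against 36 hours by 0.31 (adjusted p = 0.304). Over longer steps, Ppara was lower at 36 than at 12 hours by the limma fit (-0.46, adjusted p = 0.0359), a call that was lost in the exact permutation test (p = 0.103). At 72 hours it was still below its 4 hour level, at -0.47 with a limma adjusted p of 0.0369, which became 0.0767 after quantile normalization.

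Cpt1a intensity was 15015, 21871, 21393, 19334 and 18178 in sham livers and 11347, 12367, 11526, 12976 and 12089 at 4 hours. The 12 hour livers had 10879, 12172, 13839, 9726 and 12074, those of 36 hours had 6924, 6466, 5423, 5518 and 6953, and those of 72 hours had 9704, 7086, 8890, 9760 and 11423. All 20 livers after PHx lay below all 5 sham livers, and the 36 hour livers lay below those of every other time. Log2 intensity of this gate of mitochondrial oxidation went from 14.21 ± 0.22 in sham livers to 13.56 ± 0.08, 13.51 ± 0.19, 12.60 ± 0.17 and 13.18 ± 0.25 at 4, 12, 36 and 72 hours (SD, n = 5). The log2 fold changes against sham were -0.66, -0.70, -1.61 and -1.04, each ± 0.12 (SE), with limma adjusted p of 3.77e-04, 3.66e-05, 1.16e-10 and 2.37e-07.

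The fall of Cpt1a came in separate steps. The level at 12 hours differed from that at 4 hours by -0.05 (limma adjusted p = 0.846), and from 12 to 36 hours it fell by 0.91 on the log2 scale (limma adjusted p = 1.07e-06). From 36 to 72 hours it rose by 0.57 (limma adjusted p = 0.00158), which left it below its 4 hour level by the limma fit (-0.38, adjusted p = 0.0162). That last call was lost without replicate 2 of the 72 hour livers, the lowest of its group (-0.28, limma adjusted p = 0.0657).

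Abcd2 intensity was 329, 405, 316, 329 and 333 in sham livers and 232, 288, 232, 325 and 314 at 4 hours. The 12 hour livers had 197, 189, 154, 96.6 and 166, those of 36 hours had 1194, 757, 504, 714 and 1882, and those of 72 hours had 1684, 1514, 1546, 1712 and 1615. The peroxisomal transporter was thus lower than in any sham liver in all 12 hour livers and higher than in any sham liver in all 36 and 72 hour livers. The 36 hour livers ranged widely, and replicate 5 of them exceeded every 72 hour liver. Log2 intensity was 8.41 ± 0.14 in sham livers, 8.11 ± 0.23 at 4 hours, 7.28 ± 0.41 at 12 hours, 9.82 ± 0.74 at 36 hours and 10.66 ± 0.08 at 72 hours (SD, n = 5).

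Abcd2 changed direction between 12 and 36 hours. Against sham, its log2 fold change was -1.13 ± 0.23 (SE) at 12 hours, 1.41 at 36 hours and 2.24 at 72 hours, with limma adjusted p of 4.93e-04, 4.6e-05 and 7.84e-08. At 4 hours the difference was -0.31 and did not pass (limma adjusted p = 0.497). It fell by 0.82 from 4 to 12 hours and rose by 2.54 from 12 to 36 hours (limma adjusted p = 0.009 and 5.3e-09). From 36 to 72 hours the difference was 0.83 (limma adjusted p = 0.0221), and this call was lost without replicate 2, 3 or 4 of the 36 hour livers (adjusted p = 0.0624, 0.085 and 0.0688) or with only these groups in the fit (adjusted p = 0.106). Between 12 and 72 hours the level rose 10.3-fold.

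Mid1ip1 intensity was 1292, 1136, 1266, 1274 and 1048 in sham livers and 814, 587, 625, 790 and 730 at 4 hours. The 12 hour livers had 1610, 1154, 1184, 805 and 952, those of 36 hours had 2124, 1949, 1891, 1983 and 1332, and those of 72 hours had 2499, 2386, 2142, 1504 and 1328. The activator of acetyl-CoA carboxylase was below all sham livers in all 4 hour livers and above all sham livers in all 36 and 72 hour livers, with the 12 hour livers on both sides. Log2 intensity was 10.23 ± 0.13 in sham livers, then 9.46 ± 0.21, 10.12 ± 0.38, 10.84 ± 0.26 and 10.90 ± 0.41 at 4, 12, 36 and 72 hours (SD, n = 5). The log2 fold changes against sham were -0.77, -0.11, 0.61 and 0.67, each ± 0.18 (SE), with limma adjusted p of 0.00401, 0.693, 0.0103 and 0.00481. It rose by 0.66 from 4 to 12 hours and by 0.72 from 12 to 36 hours (limma adjusted p = 0.00539 and 0.00231), and 36 and 72 hours differed by 0.06 (adjusted p = 0.911).

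Scd2 intensity was 263, 287, 236, 245 and 302 in sham livers and 202, 263, 207, 226 and 246 at 4 hours. The 12 hour livers had 279, 221, 178, 184 and 172, those of 36 hours had 774, 885, 809, 1277 and 770, and those of 72 hours had 401, 585, 439, 622 and 494. The 36 hour livers lay above all others and the 72 hour livers lay between them and the rest, with no overlap. Log2 intensity was 8.05 ± 0.15 in sham livers, then 7.83 ± 0.16, 7.67 ± 0.29, 9.79 ± 0.31 and 8.97 ± 0.27 at 4, 12, 36 and 72 hours (SD, n = 5). The desaturase mRNA exceeded sham 3.34-fold at 36 hours (log2 fold change 1.74 ± 0.15, SE, limma adjusted p = 1.51e-09), and at 72 hours the log2 value was 0.92 (limma adjusted p = 2.66e-05). It rose by 2.12 from 12 to 36 hours and fell by 0.82 from 36 to 72 hours (limma adjusted p = 3.55e-11 and 3.82e-04). At 4 hours the difference from sham was -0.22 (limma adjusted p = 0.41). At 12 hours it was -0.38 with overlapping groups, near the threshold (limma adjusted p = 0.0472), and the call was lost after quantile normalization (adjusted p = 0.0561).

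Lss intensity was 168, 159, 127, 139 and 160 in sham livers and 197, 213, 193, 192 and 200 at 4 hours. The 12 hour livers had 197, 165, 137, 121 and 95, those of 36 hours had 180, 146, 232, 211 and 304, and those of 72 hours had 305, 412, 519, 414 and 348. Lanosterol synthase stood above all sham livers in all 4 hour livers, on both sides of them at 12 hours, above them in 4 of 5 livers at 36 hours and again above them in all 72 hour livers. Log2 intensity was 7.22 ± 0.17 in sham livers, then 7.64 ± 0.06, 7.12 ± 0.40, 7.70 ± 0.40 and 8.62 ± 0.29 at 4, 12, 36 and 72 hours (SD, n = 5). At 72 hours Lss exceeded sham 2.63-fold (log2 fold change 1.39 ± 0.17, SE, limma adjusted p = 1.13e-06), and it had risen by 0.92 since 36 hours (limma adjusted p = 8.34e-04).

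The earlier values of Lss were less certain. At 4 hours the difference from sham was 0.41 and did not pass in limma (adjusted p = 0.144, unadjusted p = 0.0275). The exact permutation test gave an unadjusted p of 0.00794, and a limma fit with only these groups gave an adjusted p of 0.00491. At 12 hours it was -0.11 (limma adjusted p = 0.7). At 36 hours it was 0.48 with a limma adjusted p of 0.0463, and leaving out 1 array at a time moved that p between 0.011 and 0.168, with the call lost in 16 of 25 cases. From 4 to 12 hours Lss fell by 0.52 and from 12 to 36 hours it rose by 0.59 (limma adjusted p = 0.0274 and 0.0119), and the levels at 36 and 4 hours differed by 0.07 (adjusted p = 0.888).

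**Figure D2:**
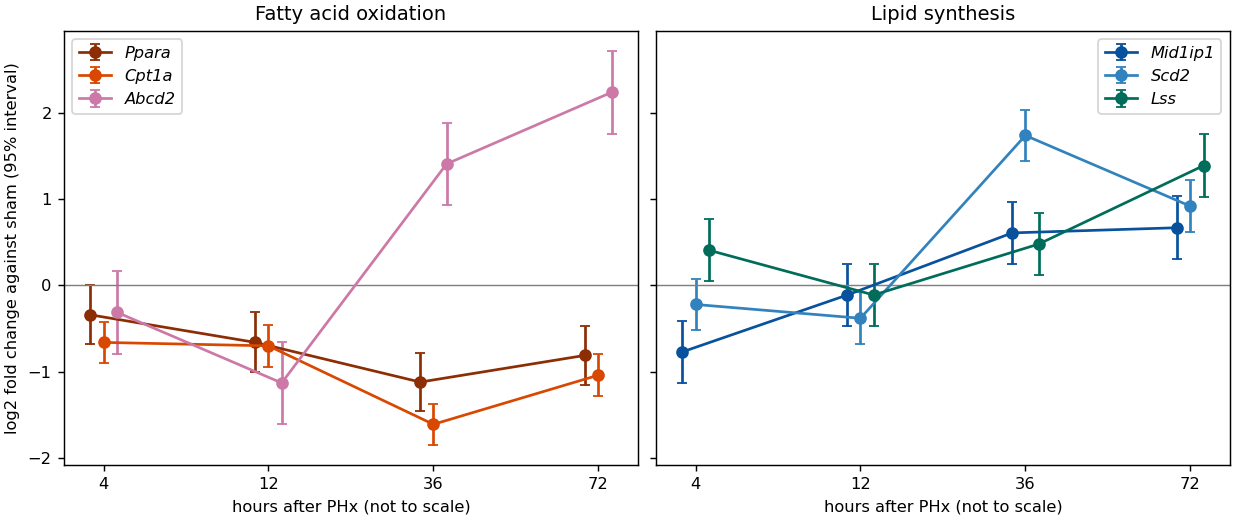
Log2 fold change of the 6 genes against sham by hours after PHx (4, 12, 36 and 72), with 95% confidence intervals from the limma fit of all 25 arrays; the left panel holds the oxidation genes and the right panel the synthesis genes. Ppara and Cpt1a lie below 0 throughout, Abcd2 goes from -1.13 at 12 hours to 2.24 at 72 hours, and Scd2 is highest at 36 hours and Lss at 72 hours.

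Counted over the 6 genes with limma at an adjusted p of 0.05, none was higher and 2 were lower than sham at 4 hours, against 6.12% of all probes higher and 6.35% lower. At an unadjusted p of 0.05, 1 of the 6 was higher at 4 hours, namely Lss. At 12 hours none was higher, nor was any at an unadjusted p of 0.05, and 4 were lower, against 16.3% and 15.1% of all probes. By 36 hours the split was 4 higher and 2 lower, against 13.6% and 12.5% of all probes. The same numbers, 4 and 2, stood at 72 hours against 15.1% and 13.1%. The genes were listed by the study for changing, so these counts describe them and set them apart from nothing. All comparisons with sham share the same 5 sham livers.

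Comparisons between successive times do not use the sham livers. From 4 to 12 hours 1 gene rose (Mid1ip1) and 2 fell (Abcd2 and Lss), against 14% of all probes higher and 13.2% lower. From 12 to 36 hours Abcd2, Mid1ip1, Scd2 and Lss rose and Ppara and Cpt1a fell, against 14.4% and 15% of all probes. From 36 to 72 hours Cpt1a, Abcd2 and Lss rose and Scd2 fell, against 5.37% and 4.54% of all probes. Between 4 and 72 hours, Abcd2 rose by 2.55, Mid1ip1 by 1.44, Scd2 by 1.14 and Lss by 0.98 on the log2 scale (limma adjusted p = 8.64e-09, 6.38e-07, 1.32e-06 and 1.03e-04).

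Likeness between time courses was measured as the root mean square difference of the 4 log2 fold changes against sham, a description with no test. Ppara and Cpt1a were the nearest pair of the 6 genes at 0.314, and Cpt1a and Abcd2 were the farthest at 2.24. Abcd2 was nearer to Scd2 (0.779) and to Lss (0.887) than to its fellow oxidation gene Ppara (1.99). Mid1ip1 differed from Scd2 by 0.653 and from Lss by 0.695, and Scd2 differed from Lss by 0.757.

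Among 1169 other named genes of the rows at hand, the nearest to Ppara were Akap8l, a nuclear anchoring protein, at 0.0975, Tob2, an antiproliferative protein, at 0.1, and Washc2, a subunit of an endosomal complex, at 0.112. The nearest to Cpt1a were Golga5, a golgin, at 0.112, Cdip1 at 0.162 and Helb, a DNA helicase, at 0.187. Scd2 ran closest to Lmnb1, the nuclear lamin B1, at 0.142, Suv39h1, a histone methyltransferase of heterochromatin, at 0.146, and Ercc6l, a DNA translocase of mitosis, at 0.192. For Mid1ip1 the nearest were Cfap20 at 0.128, Dlg3 at 0.161 and Cxxc5 at 0.165. Lss had Galns, a lysosomal sulfatase, at 0.188, Mas1 at 0.216 and Dglucy at 0.243. The nearest to Abcd2 were farther off than for the other genes, with Mrnip at 0.368, Olfml1 at 0.395 and Cenpp, a centromere protein, at 0.427. All these genes were chosen for their likeness after the values were known, and the 4 comparisons behind each value share the sham livers.

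Of 33 other lipid genes drawn from the same rows, 18 stand in cluster 3 and 7 in cluster 2, the falling ones, 6 in cluster 4 and 2 in cluster 1, so the direction of most was fixed by where they were drawn from. At 4 hours none was higher in limma, none had an unadjusted p under 0.05 in that direction, and 14 were lower. At 12 hours 1 was higher and 20 lower, at 36 hours 7 were higher and 23 lower, and at 72 hours 8 were higher and 24 lower. The median log2 fold change of the list was -0.30, -0.43, -0.61 and -0.56 at these times. The share of the list that was lower was 42.4%, 60.6%, 69.7% and 72.7%, beside 42.8%, 53.6%, 50.9% and 52.3% of all 1719 mRNA probes in these rows. The share that was higher was 0 at 4 hours, then 3.03%, 21.2% and 24.2%, beside 1.34%, 10.6%, 38.3% and 33.3%. At 4 hours the list thus stood at the share of the rows it came from, and the differences at later times were not tested. The rows lack the study's other clusters and part of its rising cluster 4, so these shares do not describe its whole list. They thus hold fewer rising transcripts of clusters 1 and 4 than the study listed.

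**Figure D3:**
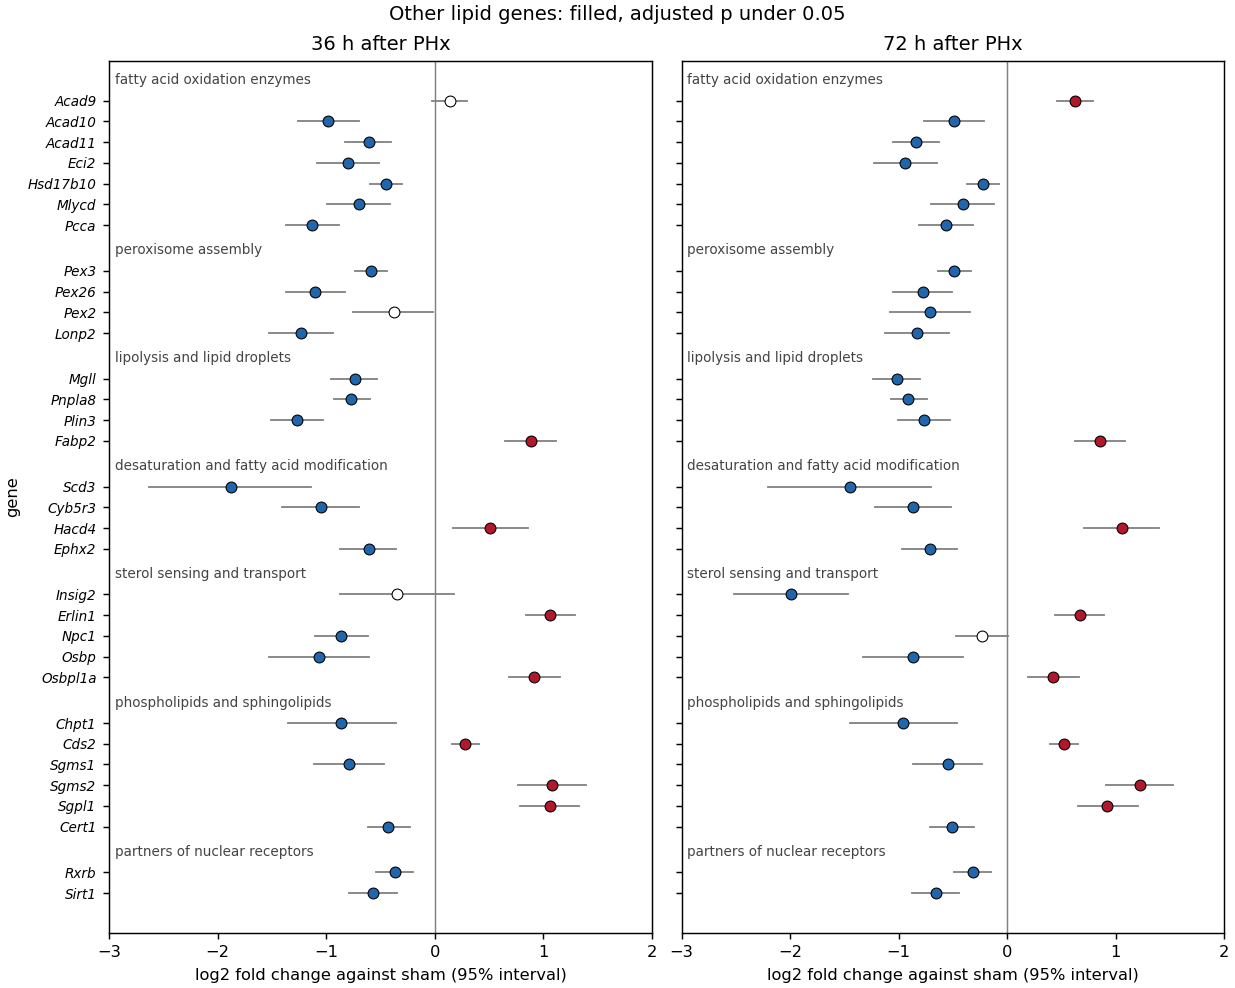
Log2 fold change against sham of the other lipid genes at 36 hours (left) and 72 hours (right) after PHx, grouped by function, with 1 gene of the list not shown, with 95% confidence intervals from limma. Filled points passed an adjusted p of 0.05 (red higher, blue lower) and open points did not; the peroxisome assembly genes shown are all lower at 72 hours, whereas sphingolipid and sterol genes lie on both sides of 0.

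Of 7 enzymes of fatty acid oxidation, 3 were lower at 4 hours (42.9%), the share of the rows they were drawn from (42.8%). That count included Pcca at -0.36 (limma adjusted p = 0.0481), a call lost in 16 of 25 fits that left out 1 array. At 36 hours 6 were lower and none higher, with a median of -0.70, where 50.9% of these rows and 12.5% of all probes were lower. All but Acad9 were drawn from the falling clusters 2 and 3, so that count was fixed by the choice. Pcca, a subunit of propionyl-CoA carboxylase, had a log2 fold change of -1.13 at 36 hours (limma adjusted p = 6.83e-08), Eci2, an enoyl-CoA isomerase, had -0.80, and Acad11, an acyl-CoA dehydrogenase, had -0.61, and all 3 passed. Acad9, drawn from the rising cluster 4, is a mitochondrial protein of the acyl-CoA dehydrogenase family that also helps to build respiratory complex I. It was at 0.14 at 36 hours, which did not pass, and was higher at 72 hours at 0.62 (limma adjusted p = 1.87e-06). Of the partners of nuclear receptors, Rxrb, a retinoid X receptor that pairs with PPARs, was at -0.37 and Sirt1, a deacetylase, at -0.57 at 36 hours, and both passed.

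Of 5 genes of peroxisome assembly, all drawn from the falling clusters, 4 were lower at 4, 12 and 36 hours and 5 at 72 hours, and none was higher, beside 6.35%, 15.1%, 12.5% and 13.1% of all probes lower. At 4 hours the count included Pex26 at -0.40 with overlapping groups (limma adjusted p = 0.047), a call lost in 19 of 25 fits that left out 1 array. Lonp2, the peroxisomal Lon protease, had a log2 fold change of -1.23 at 36 hours, Pex26, a peroxisomal membrane protein, had -1.10, and Pex3, which brings membrane proteins to the peroxisome, had -0.59. These 3 passed at 36 and 72 hours in limma, so they were below sham at the times when Abcd2 was 1.41 and 2.24 above it on the log2 scale.

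Among 4 genes of lipolysis and lipid droplets, 1 was higher and 3 were lower at 36 hours, beside 13.6% and 12.5% of all probes. Fabp2 was drawn from the rising cluster 4 and the others from the falling clusters. Their late directions were fixed by that choice. Fabp2, a fatty acid binding protein best known from intestine, was at 0.89 and 0.85 at 36 and 72 hours, whereas Mgll, the monoglyceride lipase, was at -0.74 and -1.02. Plin3, a lipid droplet coat protein, was at -1.27 and -0.77, and the phospholipase Pnpla8 was at -0.77 and -0.91. All these values passed in limma.

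The desaturation group split against Scd2. Scd2 and Hacd4 were drawn from the rising clusters, and Scd3, Cyb5r3 and Ephx2 from the falling ones. Their late directions were fixed by that choice. Scd3, another stearoyl-CoA desaturase of mouse, had intensities of 2136, 2104, 1374, 3409 and 1663 in sham livers and of 785, 483, 405, 628 and 532 at 36 hours. Every 36 hour liver was thus below every sham liver in Scd3 and above every sham liver in Scd2. The log2 fold change of Scd3 was -1.88 ± 0.36 (SE) at 36 hours and -1.45 at 72 hours (limma adjusted p = 2.59e-04 and 0.00324). Cyb5r3, the reductase of cytochrome b5 that feeds electrons to desaturases, was at -1.05 at 36 hours, and Ephx2, a hydrolase of fatty acid epoxides, was at -0.61. Hacd4, a dehydratase of fatty acid elongation, was at 0.51 at 36 hours and 1.06 at 72 hours, and these 4 values passed.

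Sterol genes moved both ways, with 2 higher and 2 lower of 5 at 36 hours, beside 13.6% and 12.5% of all probes. Those higher were drawn from the rising cluster 1 and the others from the falling clusters. Their late directions were fixed by that choice. Insig2, which holds the SREBP cleavage complex in the endoplasmic reticulum and so restrains sterol synthesis, had intensities of 5478, 8869, 9706, 8447 and 12194 in sham livers, of 4430, 5321, 7986, 11109 and 7015 at 36 hours and of 2034, 2664, 1831, 2910 and 1690 at 72 hours. It overlapped sham at 36 hours, and all 72 hour livers were lower than all other livers. Its log2 fold change was -0.35 at 36 hours (limma adjusted p = 0.385) and -1.99 at 72 hours (limma adjusted p = 1.4e-06). Between these times Insig2 fell by 1.65 (limma adjusted p = 7.6e-05). Lss rose by 0.92 over that interval, and a link between them was not tested. Erlin1, a lipid raft protein of the endoplasmic reticulum, was at 1.06 and 0.67 and Osbpl1a, an oxysterol binding protein, at 0.91 and 0.42 at 36 and 72 hours, and all 4 values passed. Npc1, the lysosomal cholesterol exporter, was at -0.86 at 36 hours, which passed, and at -0.23 at 72 hours, which did not.

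Phospholipid and sphingolipid genes were evenly split, with 3 higher and 3 lower of 6 at 36 and at 72 hours. Of all probes, 13.6% were higher and 12.5% lower at 36 hours, and 15.1% and 13.1% at 72 hours. The genes that were higher were drawn from the rising cluster 4 and those lower from the falling clusters. The split was thus fixed by that choice. The sphingomyelin synthases went apart: Sgms2 had a log2 fold change of 1.08 at 36 hours and 1.22 at 72 hours, and Sgms1 had -0.79 and -0.55. Sgpl1, the lyase that breaks down sphingosine phosphate, was at 1.06 and 0.92, and Cds2, a CDP-diacylglycerol synthase, was at 0.28 and 0.52. All these values passed in limma.

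Markers of liver cells were drawn from the same rows, and all 12 markers of hepatocytes and other liver cells stand in the falling clusters 2 and 3. That they were lower was fixed by this choice, and they cannot show that other markers fell. The label of liver tissue was borne out by 6 hepatocyte markers, whose mean levels lay between percentiles 83.6 and 99.5 of all probes. All 6 were lower than sham at 4, 36 and 72 hours and 3 of 6 at 12 hours, beside 6.35%, 12.5%, 13.1% and 15.1% of all probes. Their summed intensity ranged from 208894 to 240260 in sham livers, from 127302 to 170718 at 4 hours, from 157608 to 179370 at 12 hours, from 145605 to 154794 at 36 hours and from 122213 to 146571 at 72 hours. These markers were thus lower at the times when Ppara and Cpt1a were, and their part in these falls was not tested. In whole liver RNA, fewer cells of a type and less RNA per cell cannot be told apart.

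Of 6 markers of endothelial, stellate, macrophage and bile duct cells, none was higher at 4, 12, 36 or 72 hours. At these times 3, 6, 5 and 4 were lower, beside 6.35%, 15.1%, 12.5% and 13.1% of all probes, again as drawn from the falling clusters. Clec14a, an endothelial marker, did not pass at 36 hours (-0.18) or 72 hours (-0.05). The summed intensity of the 6 ranged from 4374 to 4709 in sham livers, from 3431 to 4315 at 4 hours, from 2208 to 2833 at 12 hours, from 2574 to 2967 at 36 hours and from 3320 to 3683 at 72 hours. Whether these cells have a part in the rises of Abcd2, Mid1ip1, Scd2 and Lss was not tested. Markers of division, drawn from the rising clusters, were higher at 36 and 72 hours, with Mcm2 at 3.86 and 1.98 and Top2a at 2.88 and 2.08. At 12 hours Mcm2 was already higher at 0.64 (limma adjusted p = 2.20e-04) while Scd2 was at -0.38, and Top2a was at -0.35, which did not pass. Their part in the time course of Scd2 was not tested. Tbp, a general transcription factor often used as a reference gene, was drawn from the falling clusters 2 and 3, which fixed its direction. It was at -0.68, -0.86, -0.92 and -1.06 at the 4 times and passed at each in limma.

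**Figure D4:**
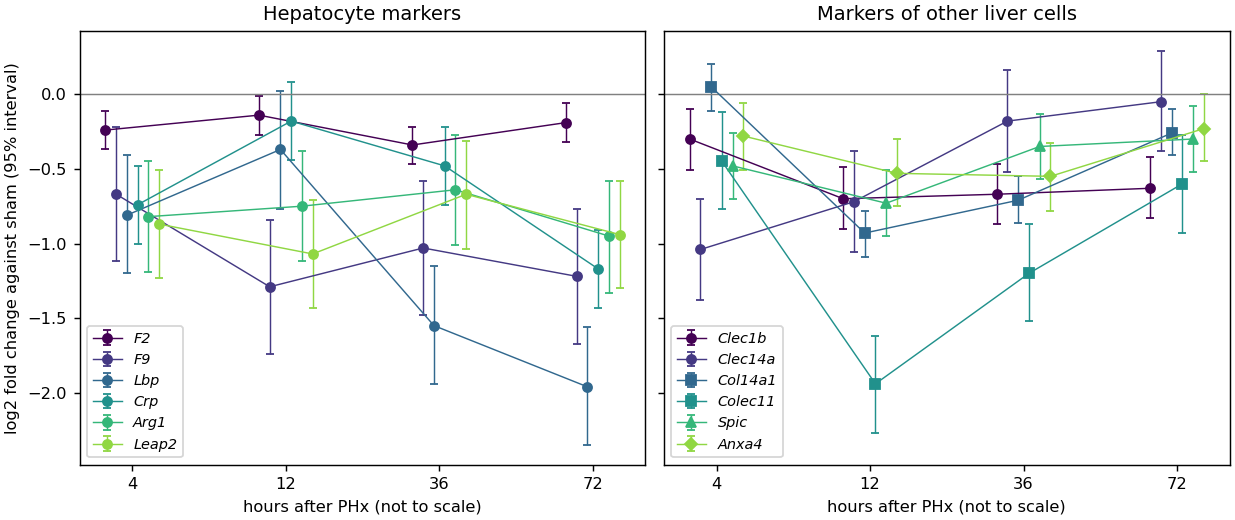
Log2 fold change against sham of 6 hepatocyte markers (left) and 6 markers of other liver cells (right) by hours after PHx (4, 12, 36 and 72). Vertical bars are 95% confidence intervals from limma. On the right, circles are the endothelial Clec14a and Clec1b, whose cell type was not tested here. Squares are stellate and fibroblast, triangles macrophage and diamonds cholangiocyte markers. All were drawn from the study's falling clusters, and points of 1 time are set slightly apart for legibility; the hepatocyte markers lie below 0 at every time, with Lbp at -1.96 at 72 hours.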

How the data were processed

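Whole liver RNA was measured on single-colour (Cy3) NCode mouse arrays. The deposited table, made by the authors, holds an intensity for each probe on each array. These intensities are on a linear scale with nearly equal medians, although the methods name the vsn package, and their log2 was used. Of 35981 probes, 2 blank ones were left out, and no probe was removed as dim. Group means were estimated in limma 3.58.1 under R 4.3.3 (lmFit, eBayes) from all 25 arrays, with Benjamini-Hochberg adjustment over 35979 probes per comparison and a threshold of 0.05. It stands in for maSigPro, named in the methods and not used here. Exact permutation tests were two-sided over 252 regroupings. Before use, the fit was tested on simulated data. Counts, motif searches and plots were made in Python 3.11.15 (pandas 2.3.3, matplotlib 3.10.9). Each array is a separate mouse, and the number of arrays limits the precision.

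Gene names came from 1998 rows of the study's table of changed transcripts (its clusters 1 to 3 and part of 4), with 1719 mRNA probes. Locations, current symbols and promoters came from RefSeq (GRCm38.p6). Other rows of that table were not used here. Where a gene had several probes, the one with the highest mean was taken. The text names the 6 genes, up to 4 genes per lipid group with the smallest F test p, and the 3 genes nearest to each of the 6. The genes, lists and tests were chosen with earlier results of these data known. The values of 1 gene of the lipid list are not reported here, although it is part of the list's counts. Alternatives were other scalings, a background correction, a filter on dim probes, other fits and tests, the replicate numbers as a block and leaving out each array.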

Additional observations from a re-analysis of the deposited data

Results flagged for a closer look

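Of 30 groups of 5 livers examined for the 6 genes, 3 held a value far from the others. On the log2 scale, the gap to the nearest liver was 0.789 of the group's range for Abcd2 in sham livers (replicate 2 highest, 405), 0.751 for Mid1ip1 at 36 hours (replicate 5 lowest, 1332) and 0.723 for Scd2 at 36 hours (replicate 4 highest, 1277). About 1 group in 20 would show such a gap by chance.

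For 3 genes the difference from sham had opposite directions at different times. The pairs of times below were picked for that, so a large difference between them in the same limma fit was bound to follow. The adjusted p values below describe it and add no independent evidence. Abcd2 differed by 2.54 on the log2 scale between 36 and 12 hours and by 3.37 between 72 and 12 hours (limma adjusted p = 5.3e-09 and 4.89e-11). Mid1ip1 differed by 1.38 between 36 and 4 hours and by 1.44 between 72 and 4 hours (limma adjusted p = 1.13e-06 and 6.38e-07). Scd2 differed by 2.12 between 36 and 12 hours and by 1.3 between 72 and 12 hours (limma adjusted p = 3.55e-11 and 1.22e-07), although its own value at 12 hours was near the threshold.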

How the results depend on the processing

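Of 48 values of the 6 genes (8 each), 37 kept their side of the threshold under every alternative run, and 34 of these kept their sign as well. The other 3, none of which passed in any fit, changed sign: Cpt1a from 4 to 12 hours (-0.11 to 0.02), Mid1ip1 from 36 to 72 hours (-0.05 to 0.19) and Lss at 12 hours (-0.23 to 0.03). In a fit with only the groups compared, the 4 hour values of Ppara (-0.34, adjusted p = 0.0275) and Lss (0.41, adjusted p = 0.00491) passed and made the number of genes higher at 4 hours 1. In that fit Ppara from 12 to 36 hours (-0.46, adjusted p = 0.156), Abcd2 from 36 to 72 hours (0.83, adjusted p = 0.106), Lss at 36 hours (0.48, adjusted p = 0.0559) and Lss from 12 to 36 hours (0.59, adjusted p = 0.0784) no longer passed. The exact permutation test, unadjusted, passed Ppara (-0.34, p = 0.00794), Abcd2 (-0.31, p = 0.0159) and Lss (0.41, p = 0.00794) at 4 hours and not Ppara (-0.46, p = 0.103) or Lss (0.59, p = 0.0556) from 12 to 36 hours. Quantile normalization ended the calls of Ppara between 4 and 72 hours (-0.41, limma adjusted p = 0.0767), Scd2 at 12 hours (-0.37, 0.0561) and Lss at 36 hours (0.44, 0.0682). Centring on the 75th percentile ended Scd2 at 12 hours (-0.36, 0.0631) and Lss at 36 hours (0.44, 0.0661), median centring ended Scd2 at 12 hours (-0.36, 0.069), and normexp background correction ended Lss at 36 hours (0.45, 0.0551). With the replicate number as a block, Lss at 36 hours did not pass (0.48, limma adjusted p = 0.0741), and no other call of the 6 genes changed. In the median, same-numbered livers deviated together no more than others (correlation 0.00326 over 50 pairs, 0.00318 over other pairs). Single pairs ranged from -0.347 to 0.46 for the same number and from -0.403 to 0.336 for others. The labels do not say what the numbers mean, and these medians cannot exclude that some numbers share a batch.

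Leaving out 1 array at a time ended calls of limma for 8 of the values, here with the lowest and highest value over 25 fits. Ppara from 12 to 36 hours ranged from -0.61 to -0.35, not passing without replicate 2, 3 or 5 at 12 hours or 2, 3 or 4 at 36 hours. Between 4 and 72 hours it ranged from -0.54 to -0.41, not passing without replicate 1, 2, 3 or 5 at 4 hours or 2, 4 or 5 at 72 hours. Cpt1a between 4 and 72 hours ranged from -0.45 to -0.28, not passing without replicate 2 at 72 hours. Abcd2 from 36 to 72 hours ranged from 0.62 to 1.09, not passing without replicate 2, 3 or 4 at 36 hours. Scd2 at 12 hours ranged from -0.50 to -0.32 and did not pass in 13 of the 25 fits, and Lss at 36 hours ranged from 0.34 to 0.60 and did not pass in 16. Lss ranged from -0.65 to -0.38 between 4 and 12 hours, not passing without replicate 2 at 4 hours or 3, 4 or 5 at 12 hours, and from 0.45 to 0.71 between 12 and 36 hours, not passing without replicate 5 of either time. The number of lipid genes higher at 12 hours was 1 with all arrays and 0 without sham replicate 1, 2 or 3 or 12 hour replicate 3 or 5. Of 8820 comparisons of a gene's value with an alternative, 38 changed sign with neither value past the threshold. The causes were not tested. The limits are 5 livers a group, dim values close to the background for Abcd2 and Lss, and sham livers from 4 hours only.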
